A study of Mus musculus with 71 samples.

Results

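The expression of 10 genes of histone recycling and deposition, 9 of them tied to the replication fork, was examined in mouse embryonic stem cells (mESCs) with and without 3 linker histone H1 genes. The genes were listed by function: Mcm2, Supt16, Ssrp1, Pcna, Chaf1a, Chaf1b, Asf1a, Asf1b, Nasp and Hira. They are 10 of the 24134 gene symbols in the RNA-seq tables and are held there by 13 RefSeq accessions, the transcript identifiers to which reads were counted. Nasp has 3 accessions and Ssrp1 has 2, and the other 8 genes have 1 each. The study asks how H3K27me3, a repressive histone mark, is restored on new chromatin after replication. It compared R1 wild-type (WT) mESCs with R1 mESCs carrying a CRISPR/Cas9 triple knockout of H1c, H1d and H1e (H1-TKO), made with a single guide that matches all 3 genes. Knockout lines were picked as single-cell clones, the number of clones behind the RNA-seq is not given in the sources used here, and the study's methods give growth on gelatin with LIF for all mESCs. The growth protocol in the labels of these RNA-seq libraries describes HeLa cells, whereas their cell type and strain name R1 mESCs. Poly(A) RNA-seq was available for 2 libraries of each genotype, and H3K27me3 ChIP-seq for 1 peak list of each.

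The genotype labels of the 4 RNA-seq libraries contradict the tables themselves. The libraries called WT here are named R1 in their own tables but H1TKO in the sample labels, and the libraries called H1-TKO are named KO in their tables but WT in the labels. The tables' names were used, because each library equalled the column of that genotype in the study's source data in 100% of the 1999 rows read. Every direction below would turn around under the labels. The transcripts of the targeted genes could not settle it, since they are counted by few reads. H1f2 (H1c) stood at 11.6 and 56.7 normalized counts in WT against 18.7 and 7.37 in H1-TKO, H1f3 (H1d) at 3.88 and 41.4 against 1.10 and 0, and H1f4 (H1e) at 5.43 and 19.6 against 0 and 2.11. The libraries held 8292007 to 10538507 assigned reads in WT and 6951619 to 7346122 in H1-TKO. The WT replicates were further apart than the H1-TKO replicates, with a median absolute log2 difference of 0.355 against 0.162 per accession. Markers of embryonic stem cells summed to between 31491 and 55122 normalized counts per library, and 10 fibroblast markers summed to between 479 and 577. Among the stem cell markers, Nanog was listed at 0 in every library and Esrrb at no more than 3.27, and both have several accessions.

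When a fork passes, nucleosomes ahead of it are taken apart and parental histones, with their marks, are handed to the daughter strands, while newly made histones fill the gaps. MCM2, a subunit of the replicative helicase, and the FACT complex (SPT16, encoded by Supt16, and SSRP1) handle parental histones at the fork. PCNA is the sliding clamp that brings chromatin assembly factor 1 (CAF-1) to new DNA, and CAF-1 deposits H3-H4 that ASF1 hands over. NASP keeps a soluble store of H3-H4, and HIRA deposits the variant H3.3 outside replication and serves here as the replication-independent counterpart. New histones arrive without H3K27me3, and Polycomb repressive complex 2 (PRC2) has to methylate them after each replication.

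Among the 10 genes, Pcna transcripts were less abundant in H1-TKO than in WT, and Mcm2 transcripts were moderately less abundant. None of the 10 was called higher by limma, edgeR or DESeq2, and the remaining 8 did not pass in limma. At an unadjusted p under 0.05, limma gave 4 lower and 0 higher, where 37.7% of all tested accessions passed that threshold, 19.8% lower and 17.8% higher. The test was limma on log2(normalized count + 1), where a normalized count is the read count divided by the size factor of its library, over the 11113 accessions with a mean of at least 10, at a Benjamini-Hochberg adjusted p under 0.05. Each gene had 1 tested accession. Of all tested accessions, 20.5% were called, 10.7% lower and 9.84% higher in H1-TKO, so that 2 of 10 genes is close to the background and is no result about these genes as a group. Their median log2 fold change was -0.32 against -0.03 for all tested accessions, and 8 of the 10 estimates lay below 0. Both H1-TKO libraries stood under both WT libraries for 6 genes and over them for 1, where 34.2% and 32.2% of all tested accessions did so. In bulk RNA-seq, a smaller share of cells in S phase and less RNA per cell cannot be told apart.

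**Figure D1:**
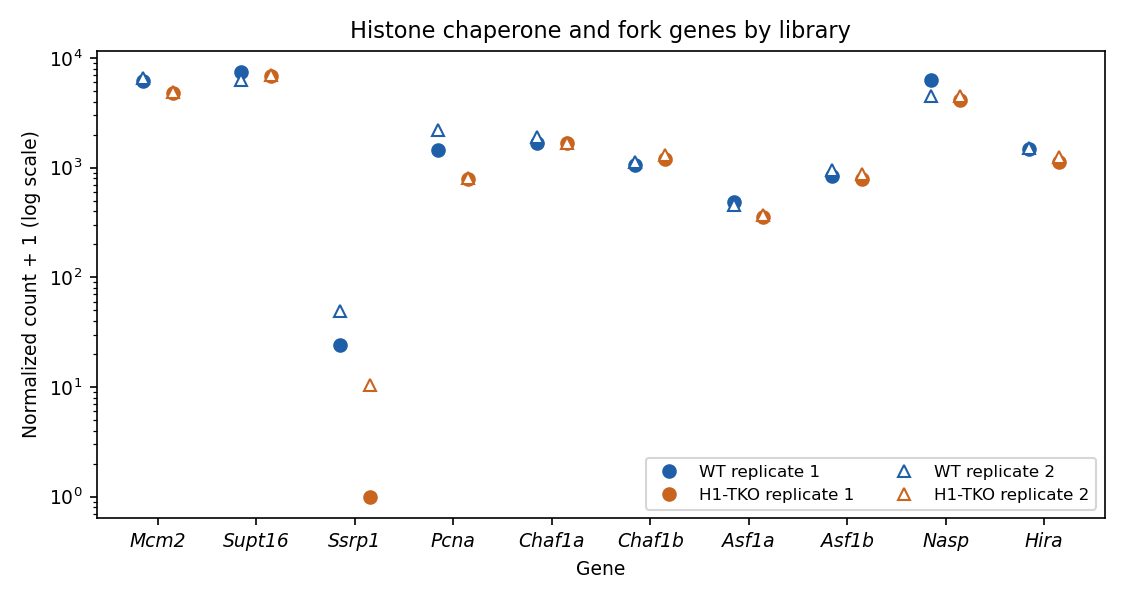
Normalized count plus 1 (log axis) of each gene in each of the 4 libraries, blue for WT and orange for H1-TKO, genotypes by table name. Pcna stands at 1459 and 2198 in WT and at 783 and 795 in H1-TKO, and Ssrp1 is at or under 48.0 in every library.

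The sequences just upstream of the 2 genes that passed the test are shown, since promoters of replication genes are known to carry CCAAT boxes (bound by NF-Y), GC boxes (bound by SP1) and E2F sites. They are the 250 bases before the RefSeq start in GRCm38.p6, 5′ to 3′ on the strand of the gene. Capitals mark CCAAT and GGGCGG on either strand. Pcna lies at chr2:132253181-132253430 and Mcm2 at chr6:88898781-88899030, both on the minus strand.
Pcna: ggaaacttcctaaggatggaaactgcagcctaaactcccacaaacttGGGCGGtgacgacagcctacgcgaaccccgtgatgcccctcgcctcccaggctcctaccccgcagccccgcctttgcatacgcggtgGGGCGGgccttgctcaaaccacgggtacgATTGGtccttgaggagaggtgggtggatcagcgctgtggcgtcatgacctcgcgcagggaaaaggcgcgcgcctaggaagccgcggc
Mcm2: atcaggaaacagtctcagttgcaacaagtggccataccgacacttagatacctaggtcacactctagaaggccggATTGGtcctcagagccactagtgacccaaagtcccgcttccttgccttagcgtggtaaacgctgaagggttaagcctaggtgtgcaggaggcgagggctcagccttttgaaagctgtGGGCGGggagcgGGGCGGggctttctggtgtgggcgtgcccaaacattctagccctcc
Each of these sequences held 1 CCAAT box, read on the opposite strand as ATTGG, and 2 GC boxes. In Pcna the CCAAT box began 87 bases before the start, and in Mcm2 175 bases before it. Over the 10 genes, 6 held CCAAT and 8 held GGGCGG, against 33.8% and 32.7% of the 32851 RefSeq promoters, and the genes without a called change held them too (Asf1b carried 4 CCAAT boxes and Chaf1b 5 GC boxes). An E2F word (TTTGGCGC, TTTCGCGC, TTTCCCGC or TTTGCCGC) was found upstream of Ssrp1 alone, against 1.86% of all promoters. Only these exact words were searched, so that other forms of an E2F site may stand upstream of the other genes. The CCAAT and GC box searches were added after the E2F search. A match is a description of the letters and not a binding site.

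Pcna (NM_011045, chr2:132074898-132079050, minus strand, NCBIM37, as are all gene positions below) was measured at 1459 and 2198 normalized counts in WT, compared with 783 and 795 in H1-TKO. The genotypes did not overlap, although the WT replicates differed by 0.59 on the log2 scale. The log2 fold change was -1.18 (SE 0.20, 95% interval -1.65 to -0.71, n = 2 per genotype, limma adjusted p = 0.0104), so that the level in WT was 2.27-fold that in H1-TKO. Leaving out WT replicate 1 gave an estimate of -1.48 and leaving out WT replicate 2 one of -0.89, and Pcna passed the threshold under each of the 15 alternative settings tried.

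Mcm2 (NM_008564, chr6:88833469-88848774, minus strand) reached 6200 and 6552 normalized counts in the WT pair, and 4749 and 4907 in the H1-TKO pair. The libraries of a genotype lay close together and the genotypes did not overlap. The log2 fold change was -0.40 (SE 0.11, 95% interval -0.66 to -0.15, limma adjusted p = 0.0409). This call was close to the threshold and passed in 9 of 15 alternative settings. The estimate stayed at -0.38 with edgeR (adjusted p = 0.0525) and -0.40 with DESeq2 (adjusted p = 0.0606), where the call was lost. It was also lost in limma with a mean of at least 1 (-0.40, adjusted p = 0.0630), without H1-TKO replicate 1 (-0.38, adjusted p = 0.445) and without replicate 2 (-0.42, adjusted p = 0.389). Quantile normalization gave a smaller estimate of -0.24 (limma adjusted p = 0.102).

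Of the other MCM subunits, which form the helicase ring with MCM2, 4 of 5 were tested. Mcm7 was the only one of them called, at 3097 and 3254 normalized counts in WT, compared with 2456 and 2334 in H1-TKO (log2 fold change -0.41, limma adjusted p = 0.0476). Mcm3, Mcm4 and Mcm6 had estimates of 0.29, 0.09 and 0.47 and did not pass, and Mcm5 was listed at 0 for both of its accessions. The ring subunits thus did not share a direction, with Mcm2 and Mcm7 lower and Mcm3, Mcm4 and Mcm6 at positive estimates. Mcm3 and Mcm6 lie on chromosome 1, where the median log2 fold change of 611 tested accessions was 0.52 above that of all accessions, and its part in their values was not tested. These genes were singled out after their values were seen.

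The FACT subunits were counted at very different levels. Supt16 (NM_033618, chr14:52780094-52816914, minus strand) gave 7439 and 6309 normalized counts in WT, compared with 6775 and 6936 in H1-TKO. The genotypes overlapped, and the log2 fold change was 0.00 (SE 0.12, 95% interval -0.29 to 0.29, limma adjusted p = 0.997). The other subunit, Ssrp1 (NM_001136081, chr2:84877355-84887266, plus strand), gave only 23.3 and 48.0 normalized counts in WT, compared with 0 and 9.48 in H1-TKO, which are 30, 44, 0 and 9 reads. Its log2 fold change of -3.41 (SE 1.14, 95% interval -6.08 to -0.74) did not pass, with a limma adjusted p of 0.0720, and it ranged from -5.11 to -1.72 over 14 alternative settings, of which 6 passed. The second Ssrp1 accession, NM_182990, held 1 and 2 reads in WT and 0 in both H1-TKO libraries.

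The low count of Ssrp1 is uncertain as a level of the gene. How the counting treated reads that fit several accessions of a gene is not given in the sources used here. Genes with several accessions were near 0 (under 1 normalized count) in 49.1% of 4884 cases, against 24.0% of 15560 genes with 1 accession. An exon of Ssrp1 also overlaps one of P2rx3, which had 3.27 to 23.3 normalized counts, and the counting is not stated to use strand.

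The CAF-1 subunits and the ASF1 paralogues, which together deliver new H3-H4 to the fork, did not pass the test in either direction. Chaf1a (NM_013733, chr17:56179827-56206973, plus strand), the large subunit of CAF-1, stood at 1685 and 1895 normalized counts in WT, compared with 1667 and 1687 in H1-TKO. Chaf1b (NM_028083, chr16:93884146-93906360, plus strand), the middle subunit, stood at 1056 and 1117 in WT and at 1189 and 1300 in H1-TKO. Chaf1b was the only one of the 10 genes with both H1-TKO libraries above both WT libraries. The log2 fold changes were -0.09 for Chaf1a (95% interval -0.39 to 0.21, limma adjusted p = 0.636) and 0.19 for Chaf1b (95% interval -0.12 to 0.51, limma adjusted p = 0.328). Exons of Chaf1a and Ubxn6 overlap on opposite strands, and Ubxn6 had 384 to 677 normalized counts.

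Asf1a (NM_025541, chr10:53316767-53329019, plus strand), which serves both replication-coupled and HIRA-mediated deposition, was counted at 488 and 455 in WT, compared with 350 and 372 in H1-TKO (normalized counts). The genotypes did not overlap, but the log2 fold change of -0.38 (95% interval -0.78 to 0.01) had a limma adjusted p of 0.142 and passed only without WT replicate 2 (adjusted p = 0.0174). Asf1b (NM_024184, chr8:86479406-86494096, plus strand), the paralogue tied to proliferation, had 837 and 946 in WT and 787 and 870 in H1-TKO. These values overlapped, with a log2 fold change of -0.10 (95% interval -0.46 to 0.25, limma adjusted p = 0.641). The intervals leave room for a decrease of both paralogues, and for Asf1b for an increase as well, that 2 libraries per genotype could not resolve. Asf1b lies on chromosome 8, where the median log2 fold change of 599 tested accessions was -0.22 relative to all. The part of this shift in its value was not tested.

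Nasp (chr4:116273657-116300556, minus strand) was counted on NM_016777 only, at 6297 and 4515 normalized counts in WT, compared with 4165 and 4485 in H1-TKO, while NM_001081475 and NM_001284229 were at 0 in all 4 libraries. WT replicate 2 stood near the H1-TKO libraries and WT replicate 1 above them. The log2 fold change was -0.30 (95% interval -0.70 to 0.09, limma adjusted p = 0.226), and it ran from -0.54 to -0.06 when 1 library was left out. It passed only without WT replicate 2, the lower of the WT libraries.

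Hira (NM_010435, chr16:18877130-18970402, plus strand) was counted at 1488 and 1505 in WT, compared with 1121 and 1243 in H1-TKO (normalized counts). The genotypes did not overlap. Its log2 fold change of -0.34 (SE 0.13, 95% interval -0.65 to -0.03) was of a size with that of Mcm2 but missed the threshold, with a limma adjusted p of 0.104. It passed in 2 of 15 alternative settings, those without a WT library. Its partners in the HIRA complex, Ubn1, Ubn2 and Cabin1, had estimates from -0.37 to 0.16 and none was called.

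**Figure D2:**
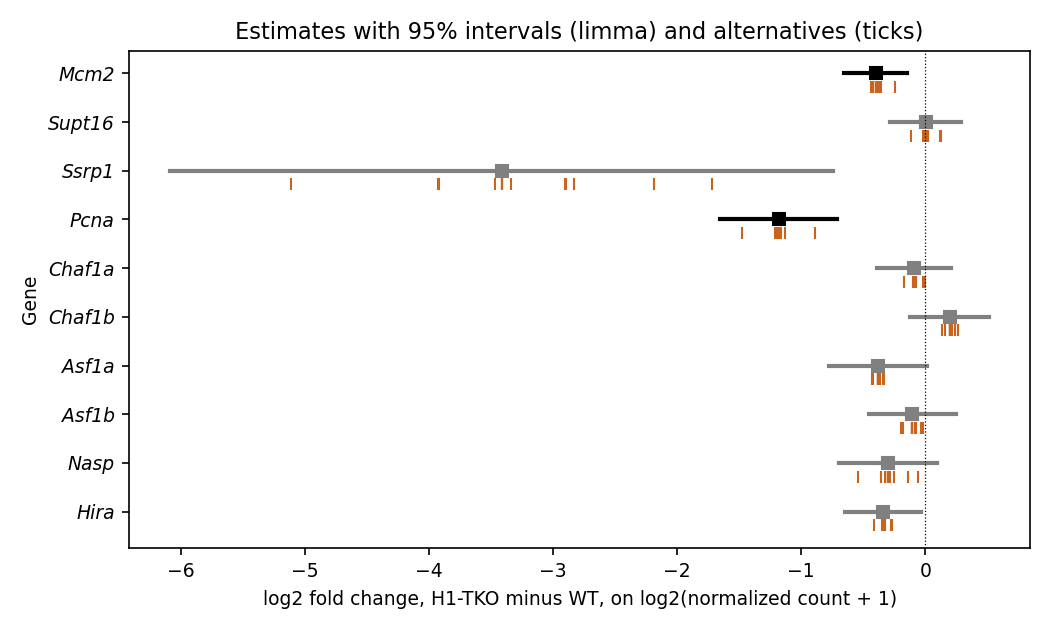
Log2 fold change of each gene, H1-TKO minus WT by table name, with squares for the limma estimate, lines for the 95% interval and orange ticks for the alternative settings. Black marks the 2 called genes, Pcna at -1.18 and Mcm2 at -0.40, and the interval of Ssrp1 runs from -6.08 to -0.74.

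Levels were compared between genes only after division by exon length (GENCODE M1, longest coding transcript). In WT, Nasp led at a mean of 2145 normalized counts per kb, followed by Mcm2 at 1892, Supt16 at 1531 and Pcna at 1205. Chaf1a (629), Chaf1b (565), Asf1b (499), Hira (355) and Asf1a (216) followed, and Ssrp1 was last at 12.8, a count that is uncertain as a level of the gene. The libraries of Nasp and Mcm2 overlapped, as did those of Supt16 and Pcna, and the other neighbours were separated. In H1-TKO, Pcna stood at 520 normalized counts per kb, under Chaf1b (647) and Chaf1a (590), and Supt16 (1527) stood above Mcm2 (1433). The order depends on the length used. With coding length only 1 gene kept its place in WT, and Pcna stood above Chaf1b and Chaf1a in H1-TKO too (1008 against 725 and 614 per kb).

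Ratios within a library, also per kb, are given as a description, with no test. Chaf1a to Chaf1b was 1.08 and 1.15 in WT and 0.948 and 0.877 in H1-TKO, so it was lower in both H1-TKO libraries than in either WT library. Asf1b to Asf1a was 2.09 and 2.53 in WT and 2.74 and 2.85 in H1-TKO, so Asf1b stood above Asf1a per kb in each library, and the ratio was higher in both H1-TKO libraries. Ssrp1 to Supt16 was at most 0.0123, where both proteins act in 1 complex. As the count of Ssrp1 is uncertain as a level of the gene, this ratio is not a measure of the balance of the FACT subunits.

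Of 36 other genes that work at the replication fork 31 were tested, 3 rose and 5 fell in H1-TKO, and their median log2 fold change was -0.04. This is 25.8% called, near the 20.5% of all tested accessions. At an unadjusted p under 0.05, 5 were higher and 10 lower, beside 17.8% and 19.8% of all tested accessions. The 5 lower calls were 3 with edgeR or DESeq2, and the 3 higher calls were 6 with quantile normalization. Without either H1-TKO library there were 0 calls in each direction, and without a WT library 9 higher and 9 or 11 lower. Rfc5, a subunit of the clamp loader that places PCNA on DNA, fell from 2144 and 2302 normalized counts in WT to 1295 and 1287 in H1-TKO (log2 fold change -0.78, limma adjusted p = 0.00844). It was the only one of the 5 Rfc genes called, and the others ranged from -0.41 (Rfc3) to 0.24 (Rfc1). Prim2 (primase), Gins1 (helicase cofactor) and Pole2 (polymerase epsilon) rose, with log2 fold changes of 0.74, 0.67 and 0.65 (limma adjusted p = 0.0148, 0.0460 and 0.0237). Prim2 lies on chromosome 1, whose shift is given above, and Gins1 has another accession with at most 0.776 normalized counts. The 5 fork genes under the count filter, Mcm5, Rpa1, Lig1, Fen1 and Timeless, all have several accessions.

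Of 24 other histone chaperones and partners 20 were tested, 2 rose and 4 fell, with a median log2 fold change of -0.12. Of all tested accessions 9.84% were called higher and 10.7% lower. At an unadjusted p under 0.05, 3 of the 20 were higher and 6 lower, beside 17.8% and 19.8% of all. Here and in the other lists a gene was counted by its tested accession of the highest mean. This left out a lower call on the second accession of Set, NM_023871, at 66.7 and 37.1 normalized counts in WT against 4.41 and 11.6 in H1-TKO (log2 fold change -2.62, limma adjusted p = 0.0292). The first, NM_001204875, stood at 130 and 171 against 147 and 126 and was not called. The 4 lower calls were 2 without H1-TKO replicate 2, 2 without chromosomes 1, 8, 11 and Y, and 6 or 8 without a WT library. The 2 higher calls were 1 without either H1-TKO library or with a mean of at least 1, and 4 or 5 without a WT library. Hat1, which acetylates new histone H4 in the cytoplasm before deposition, rose from 4169 and 3576 normalized counts in WT to 8380 and 8558 in H1-TKO. This log2 fold change of 1.13 (limma adjusted p = 0.00314) was the largest rise in the list. Rbbp7, the partner of HAT1 and a subunit of several chromatin complexes including PRC2, rose by 0.93 (limma adjusted p = 0.0219), while its paralogue Rbbp4, the small subunit of CAF-1, stood at 0.00 and was not called. Npm1 (nucleophosmin) fell by 1.41 (limma adjusted p = 0.00927) and Supt6, which keeps nucleosomes in place during transcription, fell by 0.97 (limma adjusted p = 0.00636). Both lie on chromosome 11, where the median of 910 tested accessions was -0.35 relative to all, and Npm1 has 3 accessions of which 2 were at 0. Rbbp4 was singled out after its value was seen.

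Genes of the cell cycle were set beside Pcna and Mcm2 because both are most transcribed around the entry into S phase. Of 20 genes that peak at G1/S or in S phase 13 were tested, none rose and 2 fell, with a median log2 fold change of -0.16. This is 15.4% called, where 20.5% of all tested accessions were called, 9.84% higher and 10.7% lower. Ccne1 (cyclin E1) fell from 4138 and 3593 normalized counts to 2511 and 2186 (log2 fold change -0.72, limma adjusted p = 0.0135), and Cdc6 fell by 2.72 (limma adjusted p = 0.0201) from 35.7 and 45.8 to 6.61 and 4.21. Cdc6 lies on chromosome 11 too, and its other accession had at most 1.09. Of 20 genes that peak in G2/M 16 were tested, 3 rose and none fell, with a median of 0.30. This is 18.75% called, near the 20.5% of all tested accessions. The 3 risen genes were Cenpf (0.95, limma adjusted p = 0.00582), Ccnb2 (0.56, 0.0275) and Ccnb1 (0.56, 0.0318). Cenpf lies on chromosome 1, and 2 rises were counted without chromosomes 1, 8, 11 and Y. Without either H1-TKO library, the count of G2/M rises was 1, and the count of G1/S falls was 1 without replicate 1 and 0 without replicate 2. Without a WT library there were 10 G2/M rises with 1 or 3 falls, and 4 or 5 G1/S falls with 2 rises. Quantile normalization gave 6 G2/M rises and 1 G1/S rise, and a mean of at least 1 gave 1 G2/M rise. At an unadjusted p under 0.05, 9 G2/M genes were higher and 0 lower, and 1 G1/S gene was higher and 2 were lower, beside 17.8% of all tested accessions higher and 19.8% lower. Whether a different spread of cells over the cycle goes with the values of Pcna and Mcm2 was not tested.

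**Figure D3:**
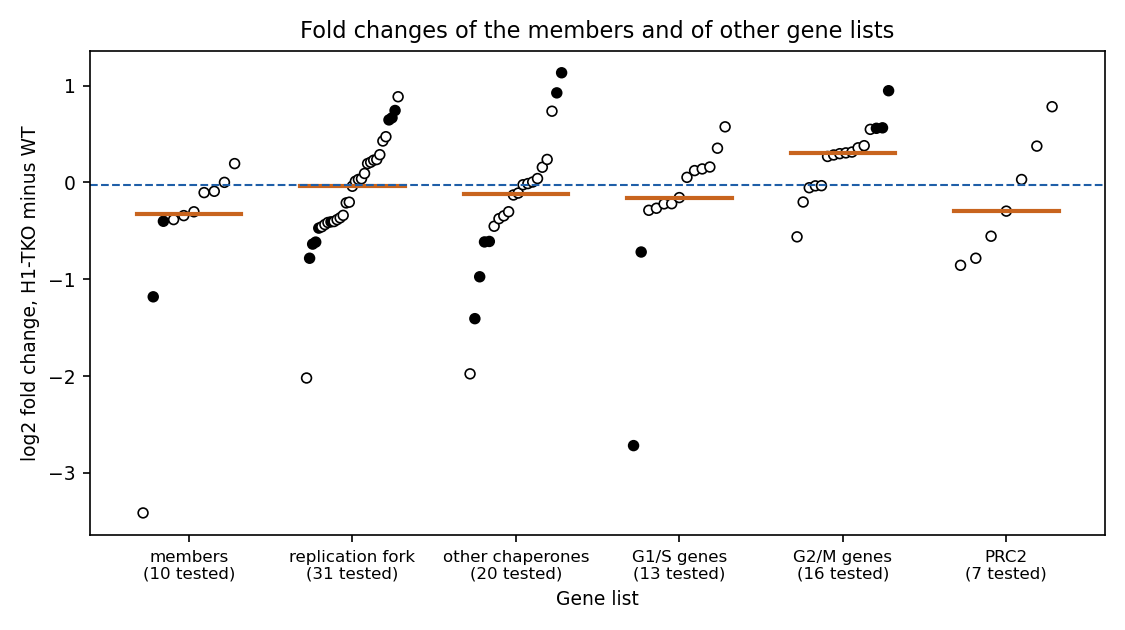
Log2 fold change, H1-TKO minus WT by table name, of the tested genes of each list, with filled points for calls at an adjusted p under 0.05 (limma), orange bars for list medians and a dashed line for the median of all accessions (-0.03). The 10 chaperone genes have a median of -0.32 and the G2/M genes of 0.30, and both directions occur in the fork and chaperone lists.

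To relate these genes to the mark itself, the H3K27me3 peak lists were read at their own loci. None of the 10 genes had a listed peak within 2 kb of a start or in its body, in the 6957 peaks of WT or the 6262 of H1-TKO. Of 22380 protein-coding genes, 14.0% (exact binomial 95% interval 13.6 to 14.5) had a peak at a start in WT and 12.8% (12.3 to 13.2) in H1-TKO. The peak nearest to the gene start was 22.8 kb from it for Mcm2 and 211 kb for Nasp in WT, and in H1-TKO these distances ran from 22.9 kb for Mcm2 to 611 kb for Nasp. They were taken from the start, so that a peak past the other end of a gene, as for Mcm2, lies nearer to its body. Each list comes from 1 library, so that no test was made, and an unlisted peak is not an absent mark.

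The writer of the mark was read in the same libraries. Of 10 PRC2 genes 7 were tested and none was called by limma or edgeR, while DESeq2 called 1 lower. In other limma fits, 1 was higher with the accessions of a gene summed, 1 was higher and 2 were lower with the replicate block, and 2 were higher and 1 or 2 lower without a WT library. At an unadjusted p under 0.05 in limma, 2 were higher and 1 was lower, where the shares of all tested accessions were 20.5% called and, unadjusted, 17.8% higher and 19.8% lower. Eed, a core subunit, stood at 2826 and 2918 normalized counts in WT, compared with 3012 and 2855 in H1-TKO, and its log2 fold change was 0.03 (limma adjusted p = 0.869). Epop, an accessory subunit, had 1680 and 5399 in WT and 1718 and 1611 in H1-TKO, where WT replicate 2 stood far from the others (log2 fold change -0.86, limma adjusted p = 0.211). The genes of the catalytic and core subunits Ezh2 and Suz12 lay under the count filter, and both have several accessions. The study's immunoblots showed an unchanged level of SUZ12 protein in H1-TKO. Rbbp7, also a subunit of PRC2, was counted in the chaperone list and was called higher there (log2 fold change 0.93, limma adjusted p = 0.0219). The restoration of H3K27me3 on replicated DNA was measured in the study by ChOR-seq, which was not analysed here, so that no value of these 10 genes is set against a restoration rate.

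Other changes stood beside these between the genotypes. Of 8 tested stem cell markers 4 rose (Klf4 by 1.45, Sox2 by 1.04, Tfcp2l1 by 0.97 and Dppa5a by 0.90 on the log2 scale) and Tdgf1 fell by 0.50, beside 9.84% of all tested accessions called higher and 10.7% lower. Nanog and Esrrb lay under the count filter and were not tested. Of 4 tested fibroblast markers, Thy1 rose (log2 fold change 2.02), and Acta2 (-6.79) and Col1a1 (-1.97) fell. The sum over all 10 listed fibroblast markers lay between 479 and 577 normalized counts per library. In that sum the rise of Thy1 and the falls of Acta2 and Col1a1 offset each other. None of the 4 tested markers of differentiated cells was called, Krt18 (log2 fold change -1.50, limma adjusted p = 0.110) and Gata4 (-1.08, 0.278) included. The sum over all 10 listed ones was 2379 in WT replicate 1 and 401 to 603 in the other libraries, mostly from Krt18. The part of these differences in the values of the 10 genes was not tested.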

How the data were processed

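Per the study's methods, the authors' counts come from featureCounts on Subread alignments to mm9, with multiply placed reads left out. The deposited signal is a normalized count, which is a read count divided by the DESeq2 size factor of its library. In every library 100% of values were whole multiples of the value of 1 read, within a tolerance of 0.01, and reads were recovered from them. The deposited peak score comes from the authors' MACS calls on mm9, and peaks were used by position, with a score minimum as an alternative.

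Symbols for 33646 of 34010 accessions were taken from RefSeq (GRCm38.p6), which served for names and promoters alone. Places and exon lengths came from GENCODE M1 (NCBIM37). Lengths of the accessions themselves were not used here, and the longest coding transcript of the gene stood in for them. limma 3.58.1 (R 4.3.3, eBayes with trend) was fitted on log2(normalized count + 1) for accessions with a mean of at least 10, and fold changes are on that scale. On recovered reads, edgeR 4.0.16 and DESeq2 1.42.0 served as alternatives. The members and gene lists were chosen with earlier results of these data known. All 10 members were named, and of each other list up to 4 called genes with the largest change or, where none was called, 2 of the highest mean. Other genes named (among them Mcm2's ring partners, Rbbp4, the HIRA partners, Rfc1, Rfc3 and Tdgf1) were chosen after their values were seen. In simulated data of 11111 genes for H1-TKO against WT, at a dispersion of 0.01, limma recovered 90 of 100 genes changed by 1 and 100 of 100 changed by 2 on the log2 scale, with 13 false calls. The dispersion was set alike for both genotypes and not estimated from the libraries. The real WT replicates lay further apart than the H1-TKO replicates (median absolute log2 difference 0.355 against 0.162), so that the simulation does not give the power in these data. Per the study, the duplicates were independent experiments.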

Additional observations from a re-analysis of the deposited data

How the results depend on the processing

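Pcna kept its direction and its call under all 15 alternatives, and Mcm2 kept its direction in all 15 and its call in 9. The count of members called lower (2) was 1 with edgeR, 1 with a mean of at least 1 and 1 with quantile normalization, and 1 to 6 when 1 library was left out. DESeq2 also gave 2, with Ssrp1 (adjusted p = 0.0457) in place of Mcm2. Over all accessions, 1094 higher and 1188 lower calls became 702 and 765 with a mean of at least 1, and ranged from 211 to 2730 and from 400 to 2797 when 1 library was left out. They were most numerous without a WT library, which leaves the spread to the H1-TKO pair and assumes that the lone WT library varies like it. In the fork, chaperone, cell cycle and PRC2 lists together, 8 higher calls became 4 with a mean of at least 1 and 15 with quantile normalization, and ranged from 2 to 28 when 1 library was left out, while 11 lower calls ranged from 2 to 25. Quantile normalization raised the share of higher calls from 47.9% to 53.8%. With coding length, 1 of 10 members kept its place in the order of WT levels. Setting aside chromosomes 1, 8, 11 and Y, added after the data were seen, changed no call among the 9 members it kept (Asf1b lies on chromosome 8). The peak result was 0 at every window and score minimum.

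The deviations of same-numbered libraries from the means of their genotypes had a correlation of 0.011 across accessions. Whether these libraries share more than a number cannot be told from it. With the replicate block, 3299 accessions were called in place of 2282, Mcm2 had a limma adjusted p of 0.0493, and Ssrp1 passed (0.000853). With 2 libraries per genotype, changes under the size of the intervals could not be resolved, and the counts of Ssrp1 are too few to give its size.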
